A study of Mus musculus with 9 samples.

Results

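The genes described here are interferon-stimulated genes, the set of genes whose transcription type I interferons raise in most cells, measured in mouse dendritic cells (DC) left untreated or exposed to trichostatin A (TSA) or butyrate. They were taken from a list of 57 gene symbols and looked up in the platform annotation among probe sets that carry exactly 1 symbol. For each gene the probe set that was brightest on average over the 9 arrays was kept. This gave 49 measured genes out of the 12393 genes on the array. No row by its symbol was found for Oas1g, Ddx58, Ifi44, Herc6, Dtx3l, Xaf1 and Phf11d, Isg15 appeared only in a probe set with several symbols, and these 8 genes are not analysed here.

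The study asked what inhibitors of histone deacetylases change in DC. The cells were spleen cells of mice aged 6 to 8 weeks that carried B16 melanoma tumours engineered to secrete Flt3L, a cytokine that drives DC expansion in vivo, and were enriched with magnetic beads against CD11c. The 3 groups, untreated, TSA and butyrate, had 3 one-colour Affymetrix arrays each and shared this source, so the untreated cells also came from tumour-bearing hosts. Strain, dose and length of treatment are not given in the labels, nor is it stated whether replicates stem from separate mice or cultures. P-values therefore cover only the spread between these samples, and that spread may be technical. CD11c beads enrich a mixture of cells, and in such bulk RNA fewer cells of a type and less RNA per cell cannot be told apart. The DC markers Itgax (CD11c), Flt3, Zbtb46, H2-Ab1, Cd74, Cd80 and Cd86 were all measured above a log2 level of 5 in every group.

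Type I interferons bind a receptor made of the chains IFNAR1 and IFNAR2. The kinases JAK1 and TYK2 then phosphorylate STAT2, which works with IRF9 in ISGF3, a factor that binds the interferon-stimulated response element in promoters and switches on sensors of viral nucleic acid, signal proteins such as IRF7, and effectors that block viral replication. DC are sources and targets of type I interferon, and plasmacytoid DC are known for making it in large amounts. Histone deacetylases are inhibited both by TSA, which is a hydroxamic acid, and by the fatty acid butyrate, a product of bacterial fermentation in the gut.

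Promoter sequences are shown for 5 genes on which the results below turn. Ifit1 and Ifit3 fell with both treatments. Ifitm1 and Ifitm3 are neighbours in the reference gene table, of which the former fell and the latter was not called. Rsad2 was lower with TSA and higher with butyrate. The sequences are from RefSeq, build GRCm38.p6, and run 5′ to 3′ on the gene's strand from 250 bases before the transcription start to 30 bases after it. Capitals mark matches to TTTCNNTTTC or, on the other strand, GAAANNGAAA, the core of the interferon-stimulated response element.
Ifit1: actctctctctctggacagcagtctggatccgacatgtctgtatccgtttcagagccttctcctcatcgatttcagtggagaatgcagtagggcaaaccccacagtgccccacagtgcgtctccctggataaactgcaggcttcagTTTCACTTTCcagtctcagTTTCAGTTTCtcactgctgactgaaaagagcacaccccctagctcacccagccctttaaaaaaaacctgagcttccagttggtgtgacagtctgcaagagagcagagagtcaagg
Ifit3: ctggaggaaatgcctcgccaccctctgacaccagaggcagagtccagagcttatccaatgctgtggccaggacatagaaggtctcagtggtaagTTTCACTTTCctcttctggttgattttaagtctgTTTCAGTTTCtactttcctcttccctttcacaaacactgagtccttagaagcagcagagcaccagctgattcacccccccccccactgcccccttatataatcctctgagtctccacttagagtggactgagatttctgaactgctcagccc
Ifitm1: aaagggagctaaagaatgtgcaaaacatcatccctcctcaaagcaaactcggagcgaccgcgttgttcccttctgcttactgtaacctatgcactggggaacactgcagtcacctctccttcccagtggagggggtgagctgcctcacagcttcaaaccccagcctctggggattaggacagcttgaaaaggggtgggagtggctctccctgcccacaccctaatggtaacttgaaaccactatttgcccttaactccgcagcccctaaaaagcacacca
Ifitm3: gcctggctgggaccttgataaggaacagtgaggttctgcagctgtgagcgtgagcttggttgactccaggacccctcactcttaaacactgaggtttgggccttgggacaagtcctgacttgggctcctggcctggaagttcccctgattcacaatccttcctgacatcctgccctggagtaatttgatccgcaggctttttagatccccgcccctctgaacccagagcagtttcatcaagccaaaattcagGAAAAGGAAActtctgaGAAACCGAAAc
Rsad2: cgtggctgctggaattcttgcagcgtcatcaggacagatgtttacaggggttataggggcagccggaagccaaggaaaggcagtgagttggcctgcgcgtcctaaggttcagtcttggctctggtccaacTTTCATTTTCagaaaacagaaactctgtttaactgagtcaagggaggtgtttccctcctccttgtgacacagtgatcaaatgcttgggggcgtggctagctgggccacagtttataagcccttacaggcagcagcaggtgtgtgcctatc
The windows lie at chr19:34640639-34640918 (plus strand) for Ifit1, chr19:34583279-34583558 (plus strand) for Ifit3, chr7:140967826-140968105 (plus strand) for Ifitm1, chr7:141010715-141010994 (minus strand) for Ifitm3 and chr12:26456423-26456702 (minus strand) for Rsad2. Matches began 104 and 85 bases before the start of Ifit1, 156 and 122 bases before that of Ifit3 and 120 bases before that of Rsad2. Those of Ifitm3 began 2 and 19 bases after its start, and the Ifitm1 window held none.

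On untreated arrays the mean level of these genes ran from 6.73 (Oas3) to 12.15 (Ifitm2) on the log2 scale of RMA, the normalization the submitters used. Over all 9 arrays 45 of the 49 lay above the median gene at 7.12. The 5th percentile of all genes, near the floor of the scale, was 4.00. Within a group the arrays lay close together, with a median SD of 0.085 and a largest SD of 0.353 over the genes and groups. The second untreated array stood somewhat above the others: only 5 of the 49 genes lay below the untreated mean on it, against 40 and 35 on the other untreated arrays. Without that array the counts given next were 3 higher and 41 lower with TSA, and 6 higher and 33 lower with butyrate.

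Most of the interferon-stimulated genes were lower in treated cells. With TSA 41 of the 49 genes fell, 2 rose and 6 were not called. With butyrate 34 fell, 5 rose and 10 were not called. A gene is called here when limma's p, adjusted by the Benjamini-Hochberg method over all 12393 genes, is under 0.05, and the counts have to be read against how often any gene was called. Over all genes TSA called 47.3%, namely 26.3% higher and 21% lower, so that the 83.7% of interferon-stimulated genes that were lower stands beside 21%. Butyrate called 58.4% of all genes, 33.6% higher and 24.8% lower, beside which 69.4% of the interferon-stimulated genes were lower. Brighter genes were called lower more often, and 45 of the 49 lay above the median level. When only the 6196 genes above that level were fitted, 2046 were lower with TSA and 2513 with butyrate. Among the 45 listed genes there, 39 and 32 were lower. The median log2 change of the 49 genes was -0.61 with TSA and -0.59 with butyrate, while the median over all genes was 0.03 and 0.08.

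**Figure D1:**
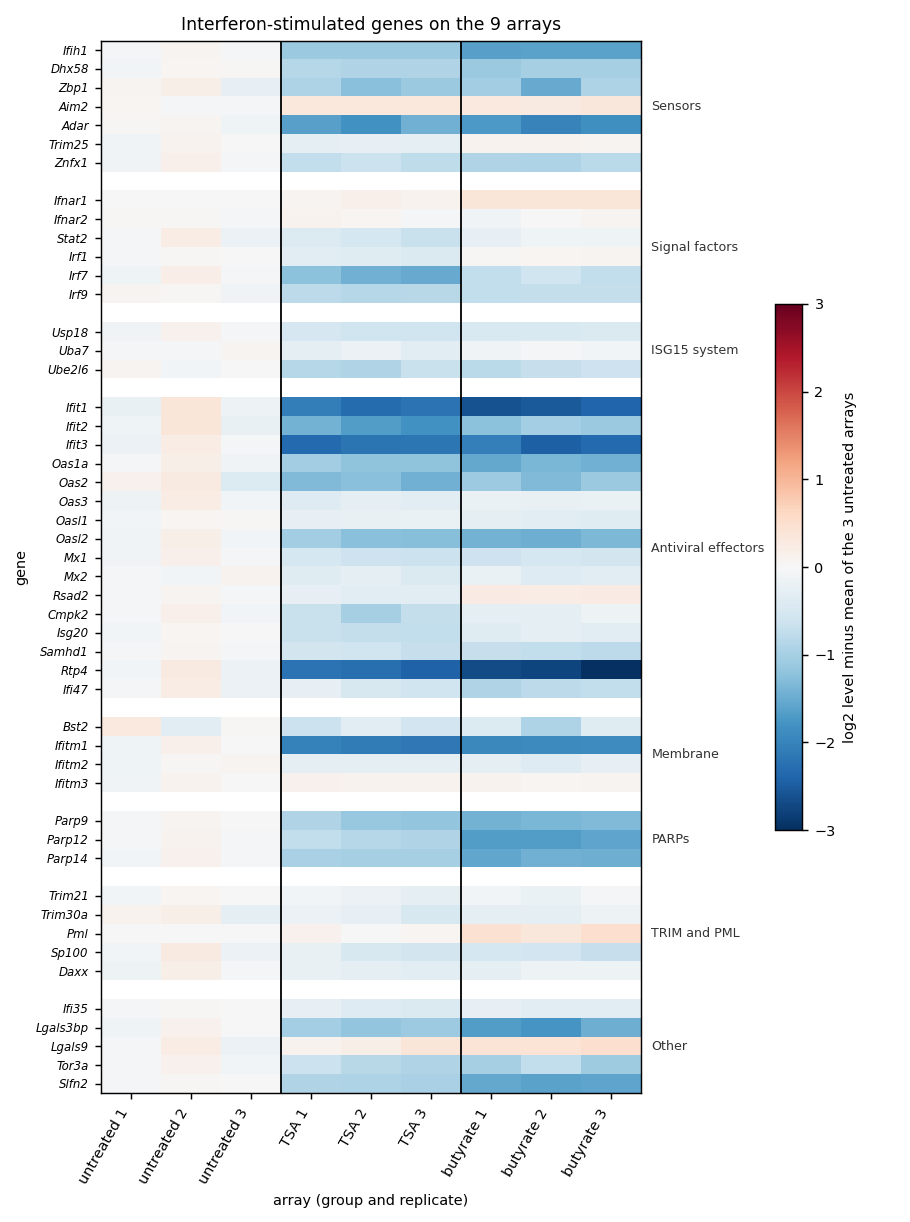
Log2 level of each of the 49 genes (rows, grouped by role) on each of the 9 arrays (columns), minus the mean of the 3 untreated arrays for that gene, from blue (lower) to red (higher). Most rows are blue on all 6 treated arrays, with Rtp4, Ifit1, Ifit3 and Ifitm1 darkest, while Aim2, Ifnar1, Pml and Lgals9 are pale red with butyrate.

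The fall was seen on every treated array. Relative to the untreated mean, the median gene of the list stood at -0.64, -0.63 and -0.67 on the TSA arrays and at -0.62, -0.59 and -0.61 on the butyrate arrays. All 3 treated arrays lay below all 3 untreated arrays for 41 genes with TSA and for 37 with butyrate, a separation that 23.9% and 26.2% of all genes showed. A called fall of at least 2-fold was reached by 14 genes with TSA and by 17 with butyrate, against 3.28% and 4.6% of all genes. Both treatments are compared with the same untreated arrays, so their counts are not independent of each other. Side by side, 34 genes were lower with both, 2 were higher with both (Aim2 and Ifnar1), 6 were lower with TSA and not called with butyrate, 2 were higher with butyrate and not called with TSA, and 4 were called with neither.

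The level of reference of the arrays matters for these counts. Spike-in RNAs that Affymetrix adds at hybridization (7 probe sets) read 10.78 ± 0.091, 10.84 ± 0.025 and 11.20 ± 0.052 (mean log2 level ± SD, n = 3 arrays) on untreated, TSA and butyrate arrays. If the arrays are shifted to equal spike-in levels, the median of all genes moves from 0.08 to -0.33 with butyrate, and 0 interferon-stimulated genes rise and 44 fall with butyrate by limma (also 0 at an unadjusted p under 0.05, and 0 on the scale of the poly-A spike-ins). The distance between the list's median and the median of all genes is by construction the same on these scales, -0.65 with TSA and -0.68 with butyrate. Every rise with butyrate below is therefore a rise relative to the other genes on the array. The part of spike-in amounts in these values was not tested.

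**Figure D2:**
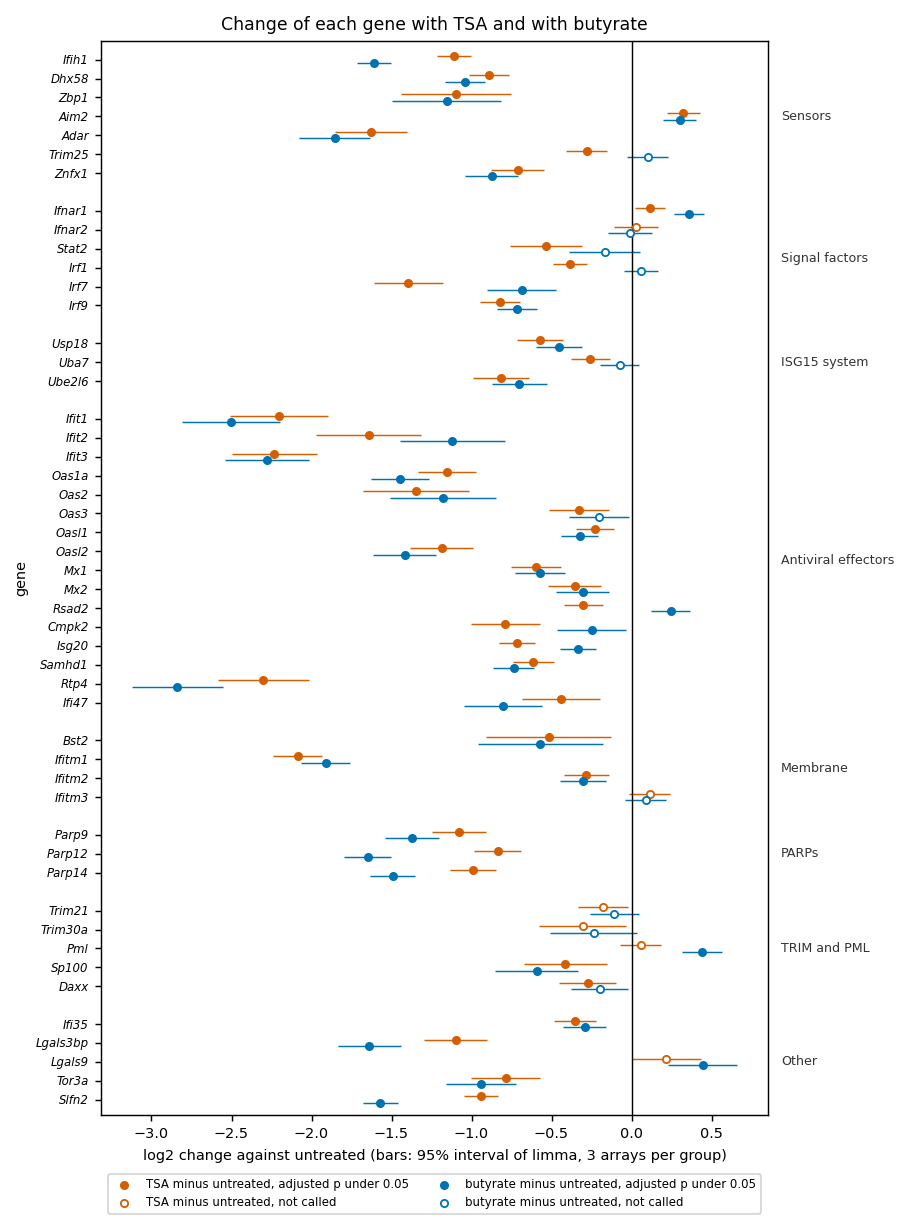
Log2 change of each gene against untreated with TSA (orange) and butyrate (blue), with limma's 95% interval from 3 arrays per group. Filled points had an adjusted p under 0.05, and most of them lie left of 0, from -2.84 for Rtp4 with butyrate to 0.44 for Pml and Lgals9 with butyrate.

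Sensors of viral RNA and DNA were the first functional group. Of 7 measured sensors and regulators, 6 fell and 1 rose with TSA (median log2 change -0.89), and 5 fell and 1 rose with butyrate (median -1.04). Ifih1 encodes MDA5, the cytosolic sensor of long double-stranded RNA. Its level was 10.11, 10.22 and 10.11 on the untreated arrays, 9.02, 9.04 and 9.04 with TSA, and 8.51, 8.54 and 8.55 with butyrate. The 3 groups did not overlap, and the butyrate arrays were lowest. Ifih1 fell by 1.11 ± 0.048 (log2 change ± SE, n = 3 arrays per group) with TSA (limma adjusted p = 4.24e-08). With butyrate it fell by 1.61 ± 0.048 (adjusted p = 3.27e-09), which is 3.06-fold lower.

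Adar, an RNA-editing enzyme with an interferon-inducible isoform that limits sensing of self RNA, had the strongest fall of this group. It was measured at 8.50, 8.56 and 8.35 untreated, 6.84, 6.66 and 7.02 with TSA, and 6.74, 6.47 and 6.63 with butyrate. All treated arrays lay more than 1 log2 unit below all untreated ones, and the TSA and butyrate arrays overlapped. The change was -1.63 ± 0.10 with TSA (adjusted p = 3.87e-07) and -1.86 ± 0.10 with butyrate (adjusted p = 1.13e-07). Dhx58, which encodes LGP2, a partner of MDA5 in RNA sensing, fell by 0.89 ± 0.055 and 1.04 ± 0.055 (adjusted p = 3.85e-07 and 9.46e-08). Zbp1, a sensor of Z-form nucleic acid that can start necroptosis, fell by 1.10 ± 0.15 and 1.15 ± 0.15 (adjusted p = 0.000148 and 8.92e-05). Znfx1, a helicase that binds viral RNA, fell by 0.71 ± 0.074 and 0.87 ± 0.074 (adjusted p = 1.7e-05 and 2.96e-06).

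Aim2 and Trim25 took another course. Aim2, the DNA sensor of the AIM2 inflammasome, was measured at 7.15, 7.07 and 7.07 untreated, 7.42, 7.41 and 7.42 with TSA, and 7.40, 7.36 and 7.43 with butyrate. Every treated array lay above every untreated one. The rise was 0.32 ± 0.046 with TSA (adjusted p = 0.000173) and 0.30 ± 0.046 with butyrate (adjusted p = 0.000255), and with butyrate it became -0.12 when scaled to the hybridization spike-ins and -0.045 when scaled to the poly-A spike-ins. Trim25, a ubiquitin ligase that promotes RIG-I signalling, was 10.78, 10.98 and 10.88 untreated, 10.58, 10.65 and 10.58 with TSA, and 11.00, 10.99 and 10.96 with butyrate. It fell with TSA (-0.28 ± 0.057, adjusted p = 0.00191), and its change with butyrate was 0.10 ± 0.057 (adjusted p = 0.156, and -0.32 on the hybridization spike-in scale). A dimmer probe set of Trim25 was called lower with butyrate (-0.30, adjusted p = 0.00477).

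Among the receptor chains and transcription factors, 4 of 6 fell with TSA (median -0.46) and 2 of 6 with butyrate (median -0.09), and Ifnar1 rose with both. Irf7, the factor that amplifies interferon production in plasmacytoid DC, had the largest fall of the group with TSA. Its levels were 8.86, 9.18 and 8.92 untreated, 7.75, 7.55 and 7.47 with TSA, and 8.24, 8.40 and 8.26 with butyrate, so that the butyrate arrays lay between the other groups without overlap. It was 2.63-fold lower with TSA (-1.39 ± 0.097, adjusted p = 8.8e-07) and 1.61-fold lower with butyrate (-0.69 ± 0.097, adjusted p = 0.000138). Irf9, the DNA-binding subunit of ISGF3, was 9.46, 9.41 and 9.26 untreated, 8.59, 8.52 and 8.55 with TSA, and 8.64, 8.67 and 8.67 with butyrate. All treated arrays lay below the untreated ones. Irf9 fell by 0.82 ± 0.056 with TSA (adjusted p = 8e-07) and by 0.72 ± 0.056 with butyrate (adjusted p = 1.73e-06).

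Stat2, another subunit of ISGF3, was 8.61, 8.89 and 8.50 untreated, 8.26, 8.14 and 8.00 with TSA, and 8.41, 8.54 and 8.54 with butyrate. The TSA arrays lay below the others, and the butyrate arrays overlapped the untreated ones. The fall with TSA was -0.53 ± 0.10 (adjusted p = 0.00113), and the change with butyrate was -0.17 ± 0.10 (adjusted p = 0.174). A second probe set of Stat2 was called lower with butyrate (-0.21, adjusted p = 0.0413), so the lack of a call holds only for the brighter one. Irf1, a factor of early interferon responses, showed 11.20, 11.27 and 11.23 untreated, 10.90, 10.86 and 10.79 with TSA, and 11.27, 11.28 and 11.32 with butyrate. It fell with TSA by 0.38 ± 0.048 (adjusted p = 6.21e-05) and had a change of 0.06 ± 0.048 with butyrate (adjusted p = 0.329, and -0.36 on the hybridization spike-in scale).

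Neither measured chain of the receptor was called lower on the deposited scale. Ifnar1 was 9.77, 9.79 and 9.79 untreated, 9.87, 9.93 and 9.89 with TSA, and 10.15, 10.15 and 10.14 with butyrate. These 3 groups were in rising order with no overlap. The rise was 0.11 ± 0.042 with TSA, close to the threshold (adjusted p = 0.0498) and not called when any 1 of the 9 arrays was left out. With butyrate it was 0.36 ± 0.042 (adjusted p = 3.4e-05), which became -0.058 on the hybridization spike-in scale. Ifnar2 had changes of 0.03 (95% interval -0.11 to 0.17, adjusted p = 0.741) and -0.01 (-0.15 to 0.13, adjusted p = 0.906), and a further probe set of it was higher with butyrate by 0.17 (adjusted p = 0.0126).

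Isg15 itself is not analysed here, but 3 genes of the system that attaches and removes ISG15 were measured. All 3 fell with TSA (median -0.57) and 2 with butyrate (median -0.45). Usp18, which removes ISG15 and damps the interferon receptor, was 9.87, 10.10 and 9.92 untreated, 9.46, 9.36 and 9.37 with TSA, and 9.51, 9.50 and 9.52 with butyrate. It fell by 0.57 ± 0.064 (adjusted p = 2.86e-05) and 0.45 ± 0.064 (adjusted p = 0.000135). Ube2l6, the E2 enzyme of the system, fell by 0.81 ± 0.078 and 0.70 ± 0.078 (adjusted p = 8.98e-06 and 2.37e-05). Uba7, the E1 enzyme, depended on the probe set. Its brightest one fell by 0.26 ± 0.055 with TSA (adjusted p = 0.00279) and changed by -0.07 with butyrate (adjusted p = 0.276), while the other probe sets fell by 0.87 and 0.91 with TSA and by 0.78 and 0.80 with butyrate.

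The antiviral effectors formed the largest group, and all 16 fell with TSA (median -0.75). With butyrate 14 fell (median -0.77), Rsad2 rose and Oas3 was not called. The IFIT proteins bind viral RNA and hinder its translation. Ifit1 was 8.55, 9.13 and 8.62 untreated, 6.69, 6.46 and 6.55 with TSA, and 6.16, 6.24 and 6.39 with butyrate. Both treated groups lay far below the untreated arrays and next to each other. Ifit1 was 4.6-fold lower with TSA (-2.20 ± 0.14, adjusted p = 4.07e-07) and 5.67-fold lower with butyrate (-2.50 ± 0.14, adjusted p = 1.2e-07).

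Ifit3 was 8.21, 8.59 and 8.32 untreated, 6.04, 6.18 and 6.20 with TSA, and 6.33, 5.92 and 6.04 with butyrate. Its fall was as large, 4.7-fold with TSA (-2.23 ± 0.12, adjusted p = 1.44e-07) and 4.85-fold with butyrate (-2.28 ± 0.12, adjusted p = 8.36e-08), although the probe set may also take up the near-identical copy Ifit3b. Ifit2, its neighbour in the genome, showed 9.42, 9.91 and 9.32 untreated, 8.12, 7.87 and 7.73 with TSA, and 8.32, 8.52 and 8.45 with butyrate. Here TSA gave the lowest arrays, with a fall of 1.64 ± 0.15 (adjusted p = 5.51e-06) against 1.12 ± 0.15 with butyrate (adjusted p = 8.14e-05).

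**Figure D3:**
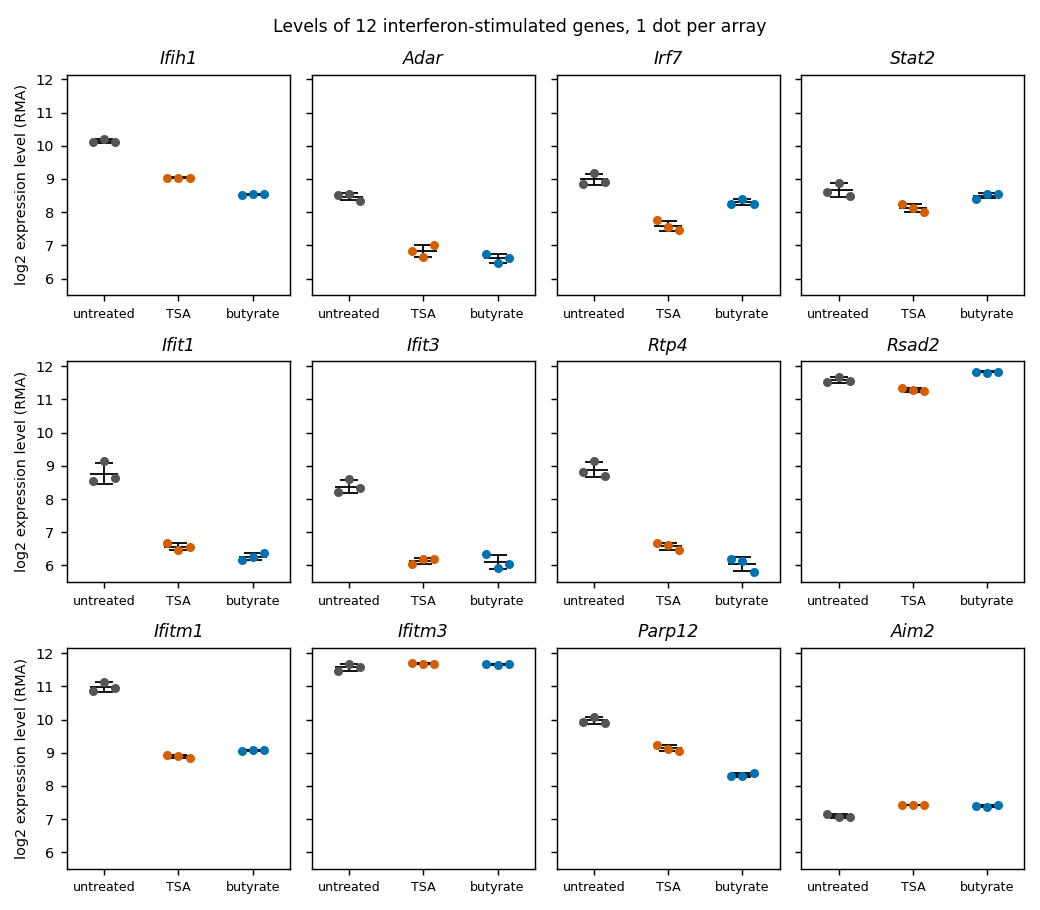
Log2 expression level (RMA) of 12 interferon-stimulated genes in the untreated, TSA and butyrate groups, 1 dot per array, with the mean and SD of each group in black. Ifit1, Ifit3, Rtp4, Ifitm1 and Adar are low in both treated groups, Rsad2 is lowest with TSA and highest with butyrate, and the treated arrays of Ifitm3 lie at the upper end of its untreated range.

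Rtp4, an interferon-inducible protein with antiviral activity, had the largest fall with either treatment among the 49 genes. Its levels were 8.80, 9.15 and 8.70 untreated, 6.67, 6.62 and 6.47 with TSA, and 6.20, 6.13 and 5.81 with butyrate, with no overlap between the 3 groups. It was 4.93-fold lower with TSA (-2.30 ± 0.13, adjusted p = 1.9e-07) and 7.16-fold lower with butyrate (-2.84 ± 0.13, adjusted p = 3.22e-08). A second probe set of Rtp4, near the floor of the scale, fell by 0.33 with TSA (adjusted p = 0.00953) and had a change of -0.14 with butyrate (adjusted p = 0.195).

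The OAS enzymes make the messenger that activates RNase L, which cuts RNA. Oas1a was 9.81, 10.03 and 9.75 untreated, 8.82, 8.65 and 8.66 with TSA, and 8.33, 8.49 and 8.43 with butyrate, and fell by 1.15 ± 0.081 (adjusted p = 9.64e-07) and 1.45 ± 0.081 (adjusted p = 1.41e-07). Oas2 was 7.95, 8.09 and 7.42 untreated, 6.49, 6.56 and 6.37 with TSA, and 6.73, 6.49 and 6.71 with butyrate, and fell by 1.35 ± 0.15 (adjusted p = 2.65e-05) and 1.18 ± 0.15 (adjusted p = 6.16e-05). In both genes every treated array lay below every untreated one. The OAS-like gene Oasl2 fell by 1.19 ± 0.088 and 1.42 ± 0.088 (adjusted p = 1.45e-06 and 3.07e-07). Its neighbour Oasl1, which restrains translation of Irf7, fell by only 0.23 ± 0.053 and 0.32 ± 0.053 (adjusted p = 0.0045 and 0.00039). Oas3, the dimmest gene of the list, fell with TSA (-0.33 ± 0.084, adjusted p = 0.00789) and had a change of -0.20 ± 0.084 with butyrate (adjusted p = 0.0597).

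Rsad2 encodes viperin, an enzyme that makes a chain-terminating nucleotide, and was the gene called with both treatments in opposite directions. It was 11.53, 11.68 and 11.55 untreated, 11.34, 11.27 and 11.24 with TSA, and 11.84, 11.81 and 11.84 with butyrate. The TSA arrays lay below and the butyrate arrays above the untreated ones. Its change was -0.30 ± 0.054 with TSA (adjusted p = 0.000815) and 0.24 ± 0.054 with butyrate (adjusted p = 0.00284). The rise with butyrate depended on the scale, since it was -0.18 with the hybridization and -0.10 with the poly-A spike-ins as reference, and also on the probe set, since the others gave 0.21 (adjusted p = 0.0126) and 0.07 (adjusted p = 0.352). All 3 probe sets of Rsad2 fell with TSA.

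Cmpk2, a nucleotide kinase and the gene next to Rsad2, was 7.67, 7.88 and 7.64 untreated, 7.06, 6.73 and 7.03 with TSA, and 7.43, 7.44 and 7.57 with butyrate. It fell by 0.79 ± 0.096 with TSA (adjusted p = 5.45e-05) and by 0.25 ± 0.096 with butyrate (adjusted p = 0.0465), and the call with butyrate was lost without untreated replicate 1 or 2, TSA replicate 3 or butyrate replicate 1 or 2. Its second probe set was not called with butyrate (0.043, adjusted p = 0.679). Isg20, an exonuclease, was 9.62, 9.76 and 9.70 untreated, 9.01, 8.97 and 8.95 with TSA, and 9.33, 9.39 and 9.35 with butyrate. Its fall of 0.71 ± 0.051 with TSA (adjusted p = 1.05e-06) and of 0.34 ± 0.051 with butyrate (adjusted p = 0.000236) left the butyrate arrays between the other groups.

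The other effectors fell moderately. Samhd1, which depletes deoxynucleotides, fell by 0.61 ± 0.057 and 0.74 ± 0.057 (adjusted p = 7.55e-06 and 1.6e-06), and its 3 further probe sets fell as well. The dynamin-like Mx1 fell by 0.60 ± 0.070 and 0.57 ± 0.070 (adjusted p = 4.16e-05 and 5.14e-05), and Mx2 by 0.36 ± 0.074 and 0.31 ± 0.074 (adjusted p = 0.00229 and 0.00498). Many laboratory strains carry a disrupted Mx1, and the labels name no strain. Ifi47, an interferon-inducible GTPase, fell by 0.44 ± 0.11 and 0.80 ± 0.11 (adjusted p = 0.00681 and 0.000105).

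Genes of proteins that act at membranes differed widely. Of the 4, 3 fell with each treatment (median -0.40 with TSA and -0.44 with butyrate). The IFITM proteins block the entry of enveloped viruses, and Ifitm2, Ifitm1 and Ifitm3 lie next to each other in the genome. Ifitm1 was 10.85, 11.13 and 10.96 untreated, 8.95, 8.89 and 8.85 with TSA, and 9.05, 9.08 and 9.08 with butyrate. It was 4.25-fold lower with TSA (-2.09 ± 0.069, adjusted p = 1.01e-08) and 3.76-fold lower with butyrate (-1.91 ± 0.069, adjusted p = 8.41e-09).

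Ifitm2 was 12.02, 12.20 and 12.24 untreated, 11.88, 11.86 and 11.88 with TSA, and 11.85, 11.78 and 11.92 with butyrate. It fell slightly but without overlap, by 0.28 ± 0.064 (adjusted p = 0.00402) and 0.31 ± 0.064 (adjusted p = 0.00214). Ifitm3 was 11.46, 11.68 and 11.58 untreated, 11.70, 11.68 and 11.68 with TSA, and 11.68, 11.63 and 11.67 with butyrate. Both treated groups overlapped the upper end of the untreated range. Its change was 0.11 with TSA (95% interval -0.02 to 0.24, adjusted p = 0.15) and 0.09 with butyrate (-0.04 to 0.22, adjusted p = 0.224, and -0.33 on the hybridization spike-in scale). So the probe sets of neighbouring genes of the same family ranged from a 4.25-fold fall to no call.

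Bst2 encodes tetherin, which holds budding virus at the cell surface and is also used as a surface marker of mouse plasmacytoid DC. It was 9.49, 8.89 and 9.23 untreated, 8.55, 8.86 and 8.63 with TSA, and 8.79, 8.27 and 8.84 with butyrate. It had the largest standard error of the 49 genes, and its lowest untreated array lay just above the highest treated ones. It fell by 0.52 ± 0.17 (adjusted p = 0.0317) and 0.57 ± 0.17 (adjusted p = 0.0172). The call with TSA was lost without untreated replicate 1 or 3 or TSA replicate 1 or 3, and the call with butyrate without untreated replicate 1 or butyrate replicate 2.

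Every measured PARP gene fell with both treatments. These 3 enzymes transfer ADP-ribose or bind it, and PARP9 works with DTX3L, which is not analysed here. Their median change was -0.99 with TSA and -1.49 with butyrate. Parp12 was 9.93, 10.08 and 9.90 untreated, 9.24, 9.11 and 9.06 with TSA, and 8.29, 8.29 and 8.39 with butyrate, in 3 separate steps. It was 1.78-fold lower with TSA (-0.84 ± 0.066, adjusted p = 2.27e-06) and 3.14-fold lower with butyrate (-1.65 ± 0.066, adjusted p = 1.53e-08). Parp14 was 10.02, 10.23 and 10.02 untreated, 9.12, 9.09 and 9.09 with TSA, and 8.53, 8.64 and 8.62 with butyrate, and fell by 0.99 ± 0.063 and 1.49 ± 0.063 (adjusted p = 4.79e-07 and 2.18e-08). Parp9 was 10.35, 10.50 and 10.39 untreated, 9.51, 9.27 and 9.23 with TSA, and 8.99, 9.05 and 9.09 with butyrate, and fell by 1.08 ± 0.075 and 1.37 ± 0.075 (adjusted p = 9.22e-07 and 1.22e-07).

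The TRIM proteins and the proteins of PML nuclear bodies had the fewest calls relative to their number with TSA. Of 5 genes, 2 fell with TSA (median -0.27), and with butyrate 1 fell and 1 rose (median -0.20). Pml, the scaffold of the nuclear body, was 7.90, 7.92 and 7.92 untreated, 8.03, 7.90 and 7.97 with TSA, and 8.38, 8.26 and 8.42 with butyrate. The TSA arrays overlapped the untreated ones and the butyrate arrays lay above both. It rose with butyrate by 0.44 ± 0.056 (adjusted p = 6.61e-05), and its change with TSA was 0.06 ± 0.056 (adjusted p = 0.463). Sp100, another body protein, fell by 0.41 ± 0.12 and 0.59 ± 0.12 (adjusted p = 0.0134 and 0.00137). Daxx, a histone chaperone of the bodies, fell with TSA (-0.27 ± 0.080, adjusted p = 0.0163) and had a change of -0.20 ± 0.080 with butyrate (adjusted p = 0.0539). The calls of Sp100 and Daxx with TSA were lost without TSA replicate 3.

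Trim21, an intracellular antibody receptor, had changes of -0.18 ± 0.069 and -0.11 ± 0.069 (adjusted p = 0.06 and 0.208), and a second probe set of it was called lower with butyrate (-0.33, adjusted p = 0.031). Trim30a, a negative regulator of inflammatory signalling, had changes of -0.31 ± 0.12 and -0.24 ± 0.12 (adjusted p = 0.062 and 0.117). A second probe set of Trim30a fell by 0.40 (adjusted p = 0.00112) and 0.32 (adjusted p = 0.00427), so for both genes the lack of a call with butyrate holds only for the brighter probe set.

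In the remaining group 4 of 5 genes fell with each treatment (median -0.79 and -0.94). Slfn2, a Schlafen protein known for its role in T cell quiescence, was 11.36, 11.45 and 11.41 untreated, 10.50, 10.47 and 10.42 with TSA, and 9.87, 9.81 and 9.82 with butyrate. The 3 groups were separate, and Slfn2 was 1.92-fold lower with TSA (-0.94 ± 0.049, adjusted p = 1.22e-07) and 2.97-fold lower with butyrate (-1.57 ± 0.049, adjusted p = 3.83e-09). Lgals3bp, a secreted galectin-binding glycoprotein, was 8.83, 9.09 and 8.93 untreated, 7.93, 7.77 and 7.85 with TSA, and 7.27, 7.19 and 7.48 with butyrate, and fell by 1.10 ± 0.088 and 1.64 ± 0.088 (adjusted p = 2.56e-06 and 1.1e-07). Tor3a, a torsin ATPase, fell by 0.79 ± 0.098 and 0.94 ± 0.098 (adjusted p = 6.09e-05 and 1.37e-05), and Ifi35 by 0.35 ± 0.059 and 0.29 ± 0.059 (adjusted p = 0.000517 and 0.00162).

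Lgals9, the glycan-binding galectin-9, was the exception in that group. It was 7.43, 7.68 and 7.30 untreated, 7.59, 7.65 and 7.83 with TSA, and 7.88, 7.89 and 7.98 with butyrate. The butyrate arrays lay above all untreated ones and the TSA arrays overlapped them. It rose with butyrate by 0.44 ± 0.097 (adjusted p = 0.00269), and its change with TSA was 0.22 ± 0.097 (adjusted p = 0.0932).

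The butyrate and TSA arrays were also compared directly. Since the labels give no dose, this is a difference between these groups of arrays and not between the compounds at matched doses. Butyrate was higher for 11 of the 49 genes (22.4%), lower for 9 (18.4%) and not called for 29, with a median difference of -0.02. Over all genes 35.9% were called in this comparison, 15.9% higher and 20% lower with butyrate (median 0.03). The shares of the list thus lay near those of all genes. Among the 6196 genes above the median level, 1284 were higher and 2405 lower, beside 12 and 11 of the 45 listed genes there. The signal factors lay on the higher side, with 4 of 6 called (median 0.31), and the PARP genes on the lower side, with 3 of 3 called (median -0.50).

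**Figure D4:**
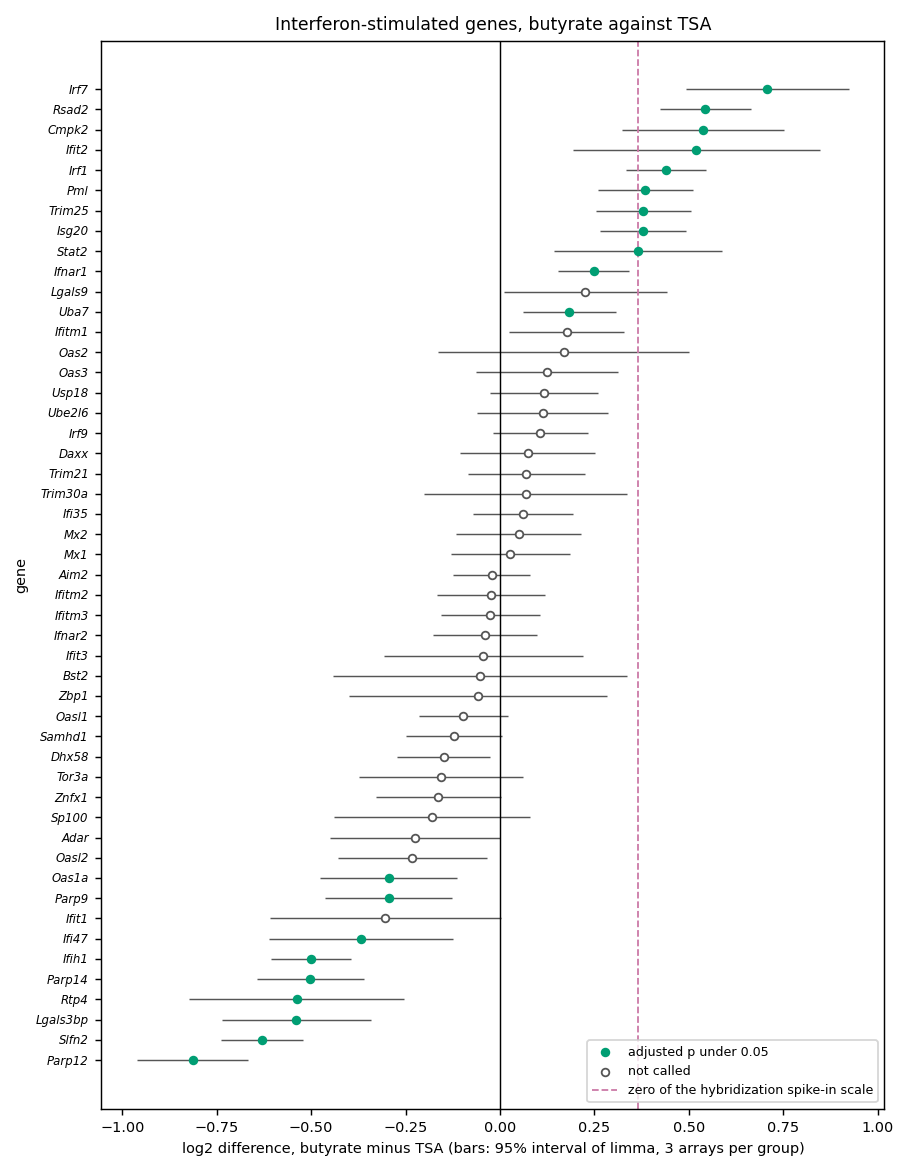
Log2 difference between butyrate and TSA for each of the 49 genes in order of size, with limma's 95% interval from 3 arrays per group. Filled points had an adjusted p under 0.05. The genes run from Parp12 at -0.81 to Irf7 at 0.71. The dashed line, 0.365 to the right of 0, marks where 0 would lie if the arrays were set to equal hybridization spike-in levels, and most points lie left of it.

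The genes higher with butyrate than with TSA were Irf7, Rsad2, Cmpk2, Ifit2, Irf1, Trim25, Isg20, Pml, Stat2, Ifnar1 and Uba7. The difference was 0.71 ± 0.097 for Irf7 (adjusted p = 0.000412), 0.54 ± 0.054 for Rsad2 (adjusted p = 6.43e-05) and 0.54 ± 0.096 for Cmpk2 (adjusted p = 0.00196). It was 0.44 ± 0.048 for Irf1 (adjusted p = 0.000109), 0.38 ± 0.057 for Trim25 (adjusted p = 0.000688) and 0.25 ± 0.042 for Ifnar1 (adjusted p = 0.00145). For Ifit2 (0.52 ± 0.15, adjusted p = 0.0202), Stat2 (0.37 ± 0.10, adjusted p = 0.0176) and Uba7 (0.18 ± 0.055, adjusted p = 0.0267) the call was lost when 1 array was left out, namely TSA replicate 2 or 3 or butyrate replicate 2 for Ifit2, TSA replicate 3 or butyrate replicate 2 or 3 for Stat2, and any TSA or butyrate array but TSA replicate 2 for Uba7. Uba7 was also not called when its probe sets were averaged, and its other probe sets gave 0.092 and 0.11 (limma adjusted p = 0.458 and 0.232). On the hybridization spike-in scale only Irf7 remained called higher, 10 of the 11 lost the call, and Ifnar1 and Uba7 turned to -0.12 and -0.18.

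The genes lower with butyrate than with TSA were Parp12, Slfn2, Rtp4, Lgals3bp, Parp14, Ifih1, Ifi47, Oas1a and Parp9. All 9 remained called lower on both spike-in scales. Those scales lower every difference between butyrate and TSA, by 0.365 (hybridization) and 0.351 (poly-A), so for genes already lower this is no independent check. The difference was -0.81 ± 0.066 for Parp12 (adjusted p = 2.31e-05), -0.63 ± 0.049 for Slfn2 (adjusted p = 1.87e-05) and -0.50 ± 0.048 for Ifih1 (adjusted p = 5.19e-05). Rtp4 (-0.54 ± 0.13, adjusted p = 0.00885) was not called when its probe sets were averaged. The calls of Ifi47 (-0.37 ± 0.11, adjusted p = 0.0254) and Oas1a (-0.29 ± 0.081, adjusted p = 0.0183) were lost without TSA replicate 1 or butyrate replicate 1, and that of Ifi47 also without TSA replicate 2 or butyrate replicate 2.

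Of the 49 genes, 13 had more than 1 probe set, with 19 further probe sets tested among all single-symbol probe sets. With TSA 18 of the 19 changed in the same direction as the probe set used, and for 15 both were called in that direction. With butyrate these numbers were 16 and 7, and in 10 pairs just 1 of the probe sets was called. For butyrate against TSA 12 of the 19 differed in the same direction, for 5 both were called in that direction, and in 5 pairs just 1 of the probe sets was called. No pair was called in opposite directions in any of these comparisons.

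A promoter window was found for 39 of the 49 genes, and for Dhx58, Zbp1, Usp18, Oas2, Mx1, Mx2, Rtp4, Parp9, Parp14 and Tor3a none was matched. Over the whole window of 250 bases before to 50 bases after the start, 13 of the 39 (33.3%) held a match to the motif marked in the sequences above, on either strand and with overlapping matches counted, as against 3.99% of the 27025 genes in the RefSeq table. Of these 13, 9 fell with TSA (median -0.33) and 6 fell and 2 rose with butyrate (median -0.24). Of the 26 genes without a match, 22 fell and 2 rose with TSA (median -0.66), and 18 fell and 3 rose with butyrate (median -0.64). The motif was thus present in genes that fell far, such as Ifit1 and Ifit3, in Ifitm3, which was not called, and in Rsad2, which rose with butyrate. These counts describe letters in a window and no binding was measured.

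Other genes of the interferon pathway were taken from a list of 92 symbols outside the 57, of which 71 were measured. With TSA 40 of them fell and 4 rose (median -0.27), and with butyrate 40 fell and 12 rose (median -0.22). The share that fell was 56.3% with each treatment, beside 21% of all genes with TSA and 24.8% with butyrate. The shares that rose were 5.63% and 16.9%, beside 26.3% and 33.6% of all genes. Gbp2, an interferon-inducible GTPase that attacks the membranes around pathogens, was 10.07, 9.95 and 9.90 untreated, 7.93, 7.69 and 7.50 with TSA, and 7.15, 7.09 and 7.57 with butyrate. It fell by 2.26 ± 0.13 with TSA (adjusted p = 2.78e-07) and by 2.70 ± 0.13 with butyrate (adjusted p = 6.04e-08). Next with TSA came Gbp3 (-1.74), Cd274, which encodes the checkpoint ligand PD-L1 (-1.67), Nmi (-1.66), the DNA-editing Apobec3 (-1.43) and Tlr7, the endosomal RNA sensor (-1.41). With butyrate they were Nmi (-2.32), Gbp3 (-1.84), Tlr7 (-1.79), Ms4a4c (-1.62) and Apobec3 (-1.62).

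Mavs, the mitochondrial adaptor through which RIG-I and MDA5 signal, moved in the opposite direction to Ifih1, the gene of MDA5. It was 7.28, 7.02 and 7.43 untreated, 8.60, 8.61 and 8.69 with TSA, and 8.51, 8.56 and 8.58 with butyrate. It rose by 1.39 ± 0.090 with TSA (adjusted p = 5.27e-07) and by 1.31 ± 0.090 with butyrate (adjusted p = 6.15e-07), and a second probe set rose by 1.12 and 1.01. Sting1, the adaptor of DNA sensing, fell by 0.64 ± 0.053 and 1.18 ± 0.053 (adjusted p = 2.93e-06 and 3.12e-08). The receptor kinase Jak1 had changes of 0.07 and 0.09 (adjusted p = 0.299 and 0.142, and -0.33 with butyrate on the hybridization spike-in scale), and its partner Tyk2 had -0.22 and -0.11 (adjusted p = 0.00957 and 0.121). Irf3 had changes of 0.14 and 0.20 (adjusted p = 0.0616 and 0.00912), Irf8 of -0.10 and 0.22 (adjusted p = 0.18 and 0.0074) and the kinase Tbk1 of -0.10 and 0.10 (adjusted p = 0.0861 and 0.0799), and with butyrate all 3 turned negative on the hybridization spike-in scale.

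Socs1, a feedback inhibitor of the receptor kinases, fell with TSA by 0.63 ± 0.14 (adjusted p = 0.00307) and had a change of -0.24 with butyrate (adjusted p = 0.158), and the difference between the treatments was not called (0.39, adjusted p = 0.0501). Of the phosphatases on the list, Ptpn11 rose by 0.46 and 0.74 (adjusted p = 2.3e-05 and 5.7e-07), which a dim probe set of it did not show (-0.058 and 0.058). The other phosphatases were added after their values were seen. Ptpn2 had changes of -0.92 and -0.75 (adjusted p = 1.51e-07 and 4.48e-07), and Ptpn6 of -0.096 and -0.083 (adjusted p = 0.161 and 0.193). The weaker rises with TSA were those of Tlr3 (0.28, adjusted p = 0.0251) and Pnp (0.19, adjusted p = 0.0167). Tlr3 was dim (mean level 5.13) and its TSA arrays overlapped the untreated ones. A second probe set of Tlr3 was not called with TSA (0.15, adjusted p = 0.185). Oas1b and Eif2ak2, which encodes the kinase PKR, rose with butyrate by 0.34 and 0.33 (adjusted p = 0.00098 and 0.00251), but a further probe set of Eif2ak2 fell by 0.64 (adjusted p = 0.0285). Ifnb1, the gene of interferon beta, was dim at 5.08, 5.02 and 5.29 untreated, 5.19, 5.26 and 5.19 with TSA, and 5.50, 5.43 and 5.26 with butyrate. Its arrays overlapped, with changes of 0.08 (adjusted p = 0.483) and 0.26 (adjusted p = 0.0189), and -0.16 with butyrate on the hybridization spike-in scale.

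Markers of several cell types also changed, and their counts stand beside the 21% and 24.8% of all genes that were lower with TSA and butyrate. Of 7 measured markers of plasmacytoid DC (10 listed), 5 fell with TSA and 6 fell and 1 rose with butyrate, with medians of -0.69 and -0.73. The log2 of their summed level was 12.86 to 12.92 on untreated arrays, 12.13 to 12.16 with TSA and 12.02 to 12.08 with butyrate, and none of them had a group mean under 5. Of 12 measured macrophage and monocyte markers (14 listed), 12 fell with TSA and 11 with butyrate, and their log2 summed level went from 13.47 to 13.53 untreated to 12.81 to 12.94 and 12.75 to 12.83. The DC markers had a log2 summed level of 15.37 to 15.40, 15.30 to 15.35 and 15.25 to 15.29, with 4 of 7 fallen and 1 risen with TSA and 3 of 7 fallen and 1 risen with butyrate. That sum comes mostly from Cd74 and H2-Ab1, whose mean log2 levels over the 9 arrays were 14.31 and 13.99, so it says little about the dimmer DC markers. Itgax had changes of -0.99 and -0.74, Flt3 of -0.60 and -0.63 and Zbtb46 of -0.58 and -0.67. Cd86 rose with TSA by 0.28 (adjusted p = 0.000725) and Cd80 with butyrate by 0.18 (adjusted p = 0.0155). Neutrophil markers fell in 7 of 10 with TSA and in 6 with butyrate, where 3 rose. Of 8 B cell markers 4 and 2 fell, of 8 T cell markers 4 fell with TSA and 2 fell and 1 rose with butyrate, and of 7 NK cell markers 4 fell with TSA and 3 fell and 1 rose with butyrate. Of 5 erythroid markers 4 fell with TSA and 3 fell and 1 rose with butyrate, and of 8 markers of the B16 melanoma 3 fell and 1 rose with TSA and 2 fell and 3 rose with butyrate. With butyrate the 25% of B cell, T cell and B16 markers that fell is close to the share of all genes. The log2 summed level of the NK cell markers was 11.89 to 11.96 untreated, 10.93 to 11.14 with TSA and 10.14 to 10.23 with butyrate, and that of the B16 markers was 10.73 to 10.89, 9.29 to 9.38 and 9.13 to 9.30. Just 1 B16 marker fell at least 2-fold with each treatment (-2.77 and -3.61), and the B16 medians were -0.05 and 0.06. Of the 8 B16 markers 4 had a group mean under 5 untreated, 3 with TSA and 3 with butyrate. The log2 summed levels of the T cell markers were 9.87 to 10.05, 9.29 to 9.44 and 9.51 to 9.54, again with 1 marker at least 2-fold lower. Those of the erythroid markers were 12.75 to 12.87, 12.11 to 12.16 and 12.40 to 12.45. The neutrophil markers had 15.24 to 15.28, 14.91 to 14.97 and 15.19 to 15.21, and the B cell markers 12.95 to 13.14, 12.88 to 12.93 and 13.02 to 13.10. The 3′ minus 5′ signal of Actb, a measure of RNA integrity, was 0.432 ± 0.066, 0.641 ± 0.042 and 0.682 ± 0.040 on untreated, TSA and butyrate arrays (log2, mean ± SD, n = 3). That of Gapdh differed less, at 0.159 ± 0.014, 0.192 ± 0.025 and 0.224 ± 0.037. The part of cell composition and of RNA integrity in the changes of the interferon-stimulated genes was not tested.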

How the data were processed

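Total RNA of 9 samples was hybridized to one-colour Affymetrix arrays. The values the authors deposited for 22690 probe sets are on a log2 scale and come from RMA, according to the submitters' processing notes. This method corrects background, quantile normalizes and summarizes probes, and it compresses changes near the floor. By the platform annotation, 20380 probe sets had 1 symbol, 691 several, 1555 none here, and 64 were controls. Each of 12393 genes was represented by its brightest probe set. No array pair held identical values.

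The limma package (version 3.58.1, R 4.3.3) was used to fit 1 mean per group over all 9 arrays (lmFit, eBayes, 6 residual and 3.9 prior degrees of freedom), and was tested on simulated data. Benjamini-Hochberg adjustment ran over the 12393 genes, and a call needed an adjusted p under 0.05. Precision is limited by the number of arrays, 3 per group, and an exact permutation test could not go below p = 0.1.

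The genes, their roles, the pathway list and the markers of DC, plasmacytoid DC, macrophages and monocytes, neutrophils, B, T, NK and erythroid cells and B16 melanoma were chosen with earlier results of these data known. All measured genes of the list are described. From the pathway list, up to 6 called genes in each direction with the largest change per treatment and a fixed set of signal genes are named, except those that are not reported here. The 9 alternatives tried were a replicate block, a filter on dim genes, the mean of a gene's probe sets, a further quantile normalization, both spike-in scales, only the groups compared, a variance trend, and leaving out each array.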

Additional observations from a re-analysis of the deposited data

How the results depend on the processing

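Leaving out each of the 9 arrays in turn, the interferon-stimulated genes called lower ranged from 38 to 42 with TSA and from 32 to 35 with butyrate, and those called higher from 1 to 3 and from 5 to 6. Against TSA, butyrate was higher for 8 to 13 genes and lower for 7 to 11. Over these fits and those with the replicate block, the probe set mean, the further quantile normalization, only the groups compared and the variance trend, 38 of the 41 falls with TSA (not Bst2, Daxx and Sp100) and 32 of the 34 falls with butyrate (not Bst2 and Cmpk2) kept their call. The median change with butyrate ranged from -0.69 to -0.59 without 1 array, and was -0.53 after the further quantile normalization.

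With TSA 1 gene was called higher with the replicate block, on the hybridization spike-in scale and with only the groups compared, and 0 on the poly-A scale, where Aim2 and Ifnar1 were lost and 29 genes were called lower. The poly-A spike-ins read 8.81 ± 0.307, 8.80 ± 0.162 and 9.16 ± 0.109 (mean log2 level ± SD, n = 3 arrays) on untreated, TSA and butyrate arrays. Scaling to them passes their spread within a group on to every gene. With TSA the median change of the list stayed at -0.61 on that scale. The replicate block gave 41 lower with TSA, 5 higher and 33 lower with butyrate, and 11 and 9 for butyrate against TSA. The deviations of samples with the same number had correlations from -0.12 to 0.21, and those of samples with different numbers from -0.25 to 0.16. With 3 arrays per group this cannot decide whether samples of the same number share a mouse or culture, which the labels do not state.

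The spike-in scales changed the butyrate results most. On the hybridization scale limma called 0 of these genes higher and 44 lower with butyrate, and 1 higher and 35 lower against TSA, with medians of -1.01 and -0.39. On the poly-A scale it called 0 higher and 38 lower, and 0 higher and 16 lower, with a median of -0.94. None was higher at an unadjusted p under 0.05 in these counts of 0. Over all genes 57.5% of calls with butyrate were higher on the deposited scale, against 9.78% (916 higher, 8448 lower) and 13.8% (543 higher, 3389 lower) on the spike-in scales. Against TSA the share was 44.2%, against 1.18% (110 higher, 9202 lower) and 0.577% (17 higher, 2931 lower). With TSA it was 55.6%, 47.6% and 50.5% (1233 higher, 1211 lower on the poly-A scale). Among the 6196 genes above the median level 2472 were higher and 2513 lower with butyrate, and 1284 higher and 2405 lower against TSA. The share of calls that were higher was thus 49.6% and 34.8% among these brighter genes. The cause of the scale effects was not tested.

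With butyrate, values that changed sign on the hybridization scale were Aim2 (-0.12), Trim25 (-0.32), Ifnar1 (-0.058), Irf1 (-0.36), Rsad2 (-0.18), Ifitm3 (-0.33), Eif2ak2 (-0.085), Ifnb1 (-0.16), Irf3 (-0.22), Irf8 (-0.20), Jak1 (-0.33), Oas1b (-0.075), Tbk1 (-0.32) and Tlr3 (-0.19), and on the poly-A scale Aim2 (-0.045), Rsad2 (-0.10), Eif2ak2 (-0.011), Ifnb1 (-0.083), Irf3 (-0.15), Irf8 (-0.13), Oas1b (-0.000978) and Tlr3 (-0.11). Eif2ak2 was -0.15 as the mean of its probe sets. Against TSA, Ifnar1 and Uba7 turned to -0.12 and -0.18 on the hybridization and to -0.10 and -0.17 on the poly-A scale. Ptpn2 and Ptpn6 turned to -0.20 and -0.35 on the hybridization scale, and Ptpn2 to -0.18 on the poly-A scale. Uncalled values that changed sign and stayed uncalled are not listed.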

Other observations

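Slfn2 lies in a row of Schlafen genes, in the order Slfn8, Slfn2, Slfn1, Slfn4 and Slfn3 in the reference gene table. These neighbours come from the pathway list but were singled out after their values were seen. Slfn8 was 8.63, 8.80 and 8.65 untreated, 8.16, 8.05 and 7.77 with TSA, and 7.27, 7.33 and 7.27 with butyrate, and like Slfn2 it was lower with butyrate than with TSA (-0.70 ± 0.093, limma adjusted p = 0.000339). Slfn4 was 8.29, 8.52 and 8.35 untreated, 7.39, 7.37 and 7.04 with TSA, and 7.85, 7.97 and 7.97 with butyrate, and was higher with butyrate than with TSA (0.67 ± 0.097, adjusted p = 0.000562). Slfn1 fell by 0.83 and 0.86 (adjusted p = 0.000342 and 0.000224), with a difference between treatments of -0.04 (adjusted p = 0.856). Slfn3 lay near the floor of the scale, with changes of 0.26 and 0.24 (adjusted p = 0.147 and 0.151).

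Among the other pathway genes, some differed between the treatments by more than any of the 49 genes. Cxcl10, a chemokine that attracts T cells and that interferons induce, was 7.76, 8.13 and 7.75 untreated, 7.56, 7.30 and 7.31 with TSA, and 8.48, 8.65 and 8.67 with butyrate. It fell with TSA (-0.49 ± 0.11, adjusted p = 0.00376) and rose with butyrate (0.73 ± 0.11, adjusted p = 0.000243). On the deposited scale Rsad2 had the same directions, but its smaller rise changed sign on both spike-in scales. Socs3, a feedback inhibitor of cytokine signalling, had a change of -0.09 with TSA (adjusted p = 0.323) and rose by 1.09 ± 0.064 with butyrate (adjusted p = 1.99e-07). In the other direction Ms4a4c fell by 0.21 ± 0.067 with TSA (adjusted p = 0.0277) and fell by 1.62 ± 0.067 with butyrate (adjusted p = 1.9e-08). Its TSA arrays overlapped the untreated ones, and a second probe set was not called with TSA (-0.17, adjusted p = 0.0998). Casp4, the mouse caspase-11 that senses cytosolic lipopolysaccharide, fell by 0.59 and 1.43 (adjusted p = 9.48e-05 and 1.13e-07), and the DNA sensor Ifi204 had -0.27 and -1.17 (adjusted p = 0.0737 and 7.12e-06). Their differences, butyrate minus TSA, were 1.22 ± 0.11 for Cxcl10, 1.18 ± 0.064 for Socs3, -1.42 ± 0.067 for Ms4a4c, -0.84 ± 0.077 for Casp4 and -0.90 ± 0.11 for Ifi204 (adjusted p = 4.13e-05, 6.38e-06, 4.31e-06, 4.38e-05 and 0.000226).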
